A study of Mus musculus with 10 samples.

Results

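Day 6 and day 3 of a course that carried mouse embryonic stem cells (ESCs) towards neuromesodermal progenitors (NMPs) were compared gene by gene, over 4 of the 10 RNA-seq libraries of the series. The 2 day 6 (D6) libraries were set against the 2 day 3 (D3) libraries. All came from wild-type ES-Bruce4 cells, a C57BL/6 ESC line kept in serum and LIF on mitotically inactive embryo fibroblasts, from which they were freed once (feeder depletion) before plating on gelatin. From day 0 the cells were in N2B27 with 10 ng/ml basic Fgf, and 5 µM CHIR99021, a Gsk3 inhibitor that switches on the Wnt pathway inside the cell, was added on day 2. They were split 1:3 on day 3, and neither group received Gdf11. The labels give B27 with or without vitamin A, the precursor of retinoic acid, and do not say which of these the libraries had. The course was run with 1 cell line. Whether replicates were grown as separate cultures is not in the labels, and a p value here therefore reflects library-to-library spread that could be technical.

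NMPs lie in the tail end of the embryo and feed both the spinal cord and the paraxial mesoderm, the tissue that is cut into somites. They carry T, a mesoderm factor, together with Sox2, a neural one, and depend on Wnt and Fgf signals, while retinoic acid made by somites opposes Fgf and favours neural fate. As the axis grows, Hox genes of higher paralogue number come on in turn and give cells their position along it. Both groups are labelled as NMPs. T had 40.1 and 43.3 CPM in the D6 libraries, against 231 and 233 CPM in the D3 libraries, and Sox2 had 204 and 187 CPM in the D6 libraries, against 178 and 166 CPM in the D3 libraries. All 4 libraries therefore held reads of both label genes, with T the lower on D6 and Sox2 slightly higher (-2.47 ± 0.05 and 0.19 ± 0.04 on the log2 scale).

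The D6 libraries held 31917999 and 31409437 gene counts and the D3 libraries 31538887 and 31391732. Levels are CPM, counts relative to library size scaled by the trimmed mean of M values (TMM), and changes are log2 fold changes of D6 over D3 ± SE from edgeR's quasi-likelihood test of all 10 libraries. A gene was called at a Benjamini-Hochberg adjusted p under 0.05 over the 18818 genes tested. Of these, 6104 (32.4%) were called higher and 6263 (33.3%) lower on D6, so 65.7% changed in 1 direction or the other and a single call says little about a list. Every list count below is to be read beside these 32.4% and 33.3%. Lack of overlap between D6 and D3 libraries rests on the same values as a call and adds no independent support. Its share over all genes was not counted. With at least a 2-fold change as well, 1308 (6.95%) were higher and 2662 (14.1%) lower. The 2-fold risers took 4.33% and 4.12% of CPM in the D6 libraries, against 1.51% and 1.50% in the D3 libraries. The 2-fold fallers took 1.61% and 1.77%, against 5.04% and 5.14%. The larger number of fallers lay below 100 CPM. At 100 CPM or more in the higher group, 100 genes rose and 90 fell 2-fold of 2962, between 10 and 100 CPM 393 rose and 674 fell of 7725, and between 1 and 10 CPM 442 rose and 1150 fell of 4638. The median log2 change of all genes was -0.00694.

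**Figure D1:**
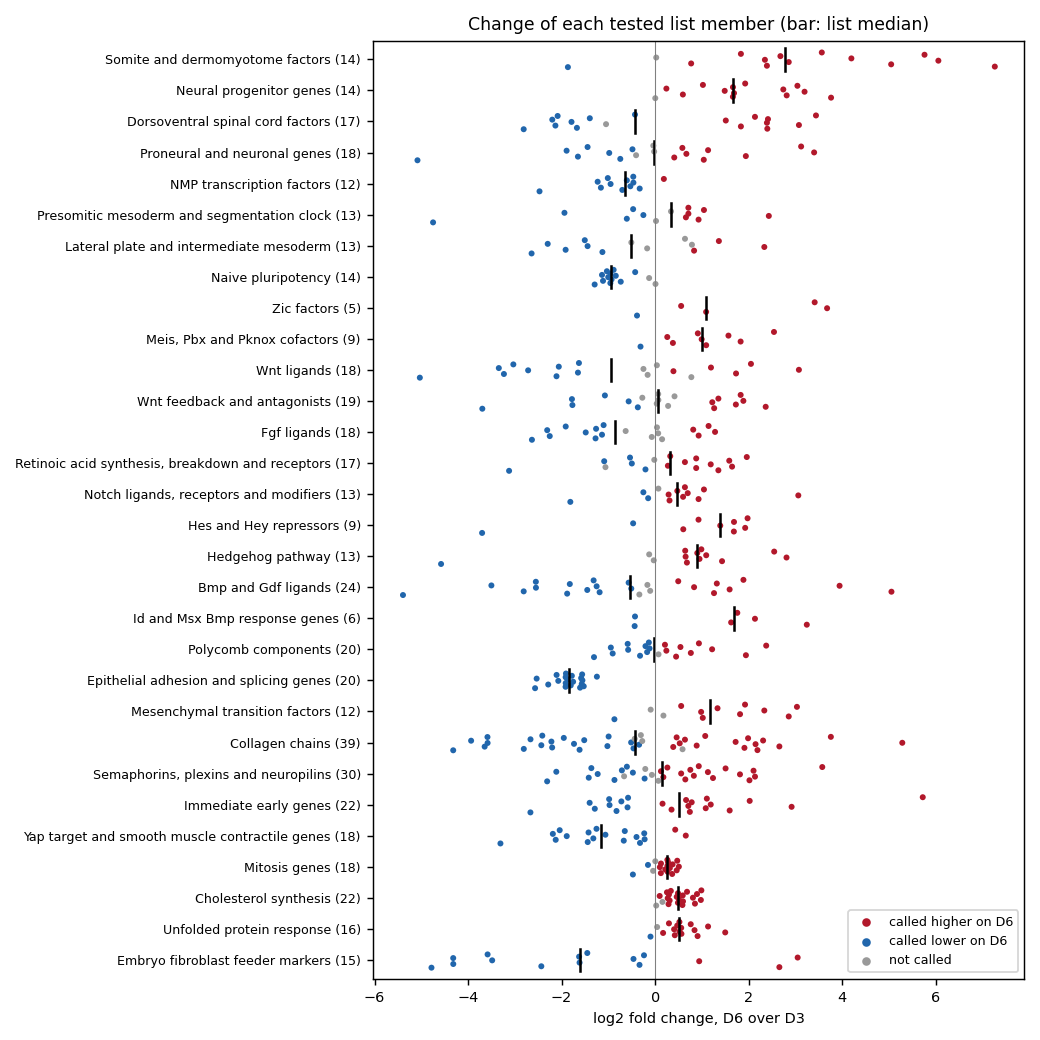
Each point is a tested member of a gene list (number tested in brackets), placed by its log2 fold change of D6 over D3 and coloured by its call, with the list median as a bar. All 20 epithelial genes lie left of 0 (median -1.84), most somite and neural progenitor genes lie right of it, and ligand and matrix lists spread to both sides.

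Genes of somites and their dermomyotome, the layer that gives rise to dermis and trunk muscle, stood among the steepest risers. 12 of 14 tested members were called higher and 1 lower, with a list median of 2.77. Dmrt2, a dermomyotome factor, had 39.2 and 30.2 CPM in the D6 libraries, against 0.735 and 1.36 CPM in the D3 libraries (5.05 ± 0.18, adjusted p = 3.17e-15). Uncx, a homeobox gene of the posterior part of each somite, had 6.86 and 4.55 CPM on D6, against 0.337 and 0.278 CPM on D3 (4.20 ± 0.28, adjusted p = 4.50e-11). Pax9 of the sclerotome had 10.9 and 9.17 CPM on D6, against 0.827 and 0.864 CPM on D3 (3.56 ± 0.17, adjusted p = 2.17e-13). In all 3 genes every D6 library lay far above every D3 library, and D6 replicate 1 was the higher of the D6 pair. Meox1 had 48.6 and 37.7 CPM on D6, against 0.245 and 0.308 CPM on D3. Its log2 rise led called genes without overlap of groups and with at least 10 CPM in a group, predicted and Riken genes left out. Its relative Meox2 had 2 counts in the D3 libraries together and 143 in the D6 libraries, a ratio of 75.0 (95% interval 20.4 to 625; counting error only). Tcf15, which keeps somites epithelial, had 12.8 and 10.8 CPM on D6, against 2.94 and 3.70 CPM on D3 (1.83 ± 0.12), and Eya1, a transcriptional cofactor, had 19.5 and 17.0 CPM on D6, against 2.67 and 3.02 CPM on D3 (2.68 ± 0.11). The muscle gene Myf5 and the sclerotome gene Nkx3-2 had too few counts to be tested, and of 8 heart and skeletal muscle genes 3 were higher and 4 lower.

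Levels of the same somite genes did not keep climbing. Meox1 averaged 13.7 CPM on day 7 without Gdf11 and Dmrt2 18.7 CPM, both below their D6 libraries, and Uncx averaged 1.43 CPM. Twist1 and Pax3 did not share this: Twist1 averaged 42.2 CPM on day 7 and 38.4 CPM on D6, and Pax3 54.6 and 41.3 CPM.

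Neural progenitor genes rose together with the somite genes. 13 of 14 were called higher and 0 lower, with a median of 1.67. The orphan nuclear receptor gene Nr2f2 had 47.1 and 43.1 CPM in the D6 libraries, against 3.62 and 3.02 CPM in the D3 libraries (3.76 ± 0.09, adjusted p = 1.07e-17), and its relative Nr2f1 had 18.2 and 15.3 CPM on D6, against 2.05 and 2.005 CPM on D3 (3.04 ± 0.14). Fabp7, a fatty acid binding protein of radial glia, had 53.1 and 49.7 CPM on D6, against 5.94 and 5.27 CPM on D3 (3.20 ± 0.08, adjusted p = 2.02e-17). Every D6 library again lay above every D3 library. Pou3f2 and Pou3f3, POU factors of the neural tube, rose by 2.74 ± 0.09 and 2.81 ± 0.14, and Sox21 and Sox3 by 1.66 ± 0.09 and 1.66 ± 0.10. Nes, an intermediate filament gene of progenitors, did not pass (167 and 149.8 CPM on D6, against 150.2 and 166 CPM on D3; 0.00 ± 0.05, adjusted p = 0.973), with its D6 values on either side of its D3 values.

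Later neuronal genes did not move as a block. Of 18 proneural and neuronal genes 8 were higher and 7 lower (median -0.03). Neurog2, a proneural factor of the spinal cord, had 6.57 and 6.81 CPM on D6, against 0.582 and 0.679 CPM on D3 (3.40 ± 0.20, adjusted p = 1.11e-11), and Elavl4, a neuronal RNA-binding protein, had 13.2 and 12.9 CPM on D6, against 3.49 and 3.30 CPM on D3 (1.94 ± 0.10). Stmn2, a tubulin-binding protein of growing axons, had 18.2 and 24.7 CPM on D6, against 77.3 and 82.3 CPM on D3 (-1.89 ± 0.08, adjusted p = 7.31e-14), and Neurog3, a relative of Neurog2 best known from the pancreas, had 0.0966 and 0.161 CPM on D6, against 4.53 and 4.47 CPM on D3 (-5.08 ± 0.36). Neurog2 and Elavl4 thus rose while Stmn2 and Neurog3 fell, and D6 and D3 overlapped in none of the 4.

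Among factors that set the dorsoventral domains of the spinal cord, 8 of 17 were higher and 8 lower. Over all genes the shares were 32.4% and 33.3%. Of the fallers, 7 fell by at least 2-fold, and the steepest, the roof plate ligand gene Gdf7, had 0.0966 and 0.0323 CPM on D6, against 0.582 and 0.370 CPM on D3. Gdf7 rests on few counts, 4 in the D6 libraries together and 31 in the D3 libraries. Its change was -2.81 ± 0.59, or -3.73 without D6 replicate 1. Pax7 rose by 3.44 ± 0.13, Pax3 by 2.39 ± 0.09 and Msx1 by 2.13 ± 0.07, and the intermediate factors Irx3 and Irx5, neighbours in 1 Irx cluster, by 3.07 ± 0.08 and 2.41 ± 0.10. Of ventral factors, Nkx6-1 rose to 5.63 and 5.42 CPM on D6, against 0.9498 and 1.14 CPM on D3 (2.40 ± 0.19). Olig1 and Olig2, motor neuron and oligodendrocyte factors, fell by 1.79 ± 0.10 and 1.67 ± 0.10, and on day 2 they had averaged 70.2 and 53.7 CPM. The ventral gene Nkx2-9 fell as well (1.03 and 0.904 CPM on D6, against 4.23 and 4.29 CPM on D3; -2.13 ± 0.20).

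Zic1, Zic2, Zic4 and Zic5, zinc-finger factors of the dorsal neural tube and the paraxial mesoderm, rose to different degrees. Zic1 had 378 and 354 CPM in the D6 libraries, against 36.2 and 32.7 CPM in the D3 libraries (3.41 ± 0.06, adjusted p = 2.14e-19). Zic4, its neighbour on chromosome 9, had 34.2 and 31.2 CPM on D6, against 2.33 and 2.78 CPM on D3 (3.68 ± 0.12, adjusted p = 7.30e-16). Zic2 had 56.2 and 55.3 CPM on D6, against 28.1 and 24.2 CPM on D3 (1.09 ± 0.06), and Zic5 had 28.4 and 27.0 CPM on D6, against 20.04 and 17.6 CPM on D3 (0.56 ± 0.07). Zic1 and Zic4 therefore had the larger rises, and Zic2 and Zic5 the smaller, with no overlap of groups in any of the 4. Zic2 and Zic5 had been at 81.3 and 72.1 CPM on day 2, where Zic1 and Zic4 were at 1.68 and 0.164 CPM.

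Hox genes rose in every cluster. Of the genes tested, 8 of 10 Hoxb, 8 of 9 Hoxc and 9 of 9 Hoxd genes were called higher, with median log2 fold changes of 1.09, 2.67 and 2.00, and that of Hoxa genes was 2.17. Fallers included genes at the ends of clusters. Hoxc13 had 1.71 and 1.87 CPM in the D6 libraries, against 5.02 and 4.10 CPM in the D3 libraries (-1.35 ± 0.19, adjusted p = 2.79e-06). The call of Hoxb1 (-0.25 ± 0.09, adjusted p = 0.0196) was lost without D6 replicate 2 (adjusted p = 0.543) and without D3 replicate 2 (adjusted p = 0.117). That of Hoxb13 (0.515 and 0.742 CPM on D6, against 1.16 and 1.05 CPM on D3; -0.81 ± 0.28, adjusted p = 0.0169) was lost without D6 replicate 1 (adjusted p = 0.163) and without D3 replicate 1 (adjusted p = 0.0892). Hoxa6 had 5.73 and 4.97 CPM on D6, against 0.214 and 0.247 CPM on D3 (4.51 ± 0.29, adjusted p = 2.55e-11), or 3.74 in the second deposited count table. Hoxd10 had 5.99 and 5.97 CPM on D6, against 0.582 and 0.278 CPM on D3 (3.78 ± 0.23, or 4.41 without D3 replicate 1), and Hoxd11 had 3.89 and 3.68 CPM on D6, against 0.337 and 0.154 CPM on D3 (3.92 ± 0.28, or 4.58 without D3 replicate 1). Hoxd13, at the end of its cluster, was the smallest Hoxd riser (1.05 ± 0.17). Hox genes lie close together and some transcripts overlap, so reads of a neighbour may count for them.

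**Figure D2:**
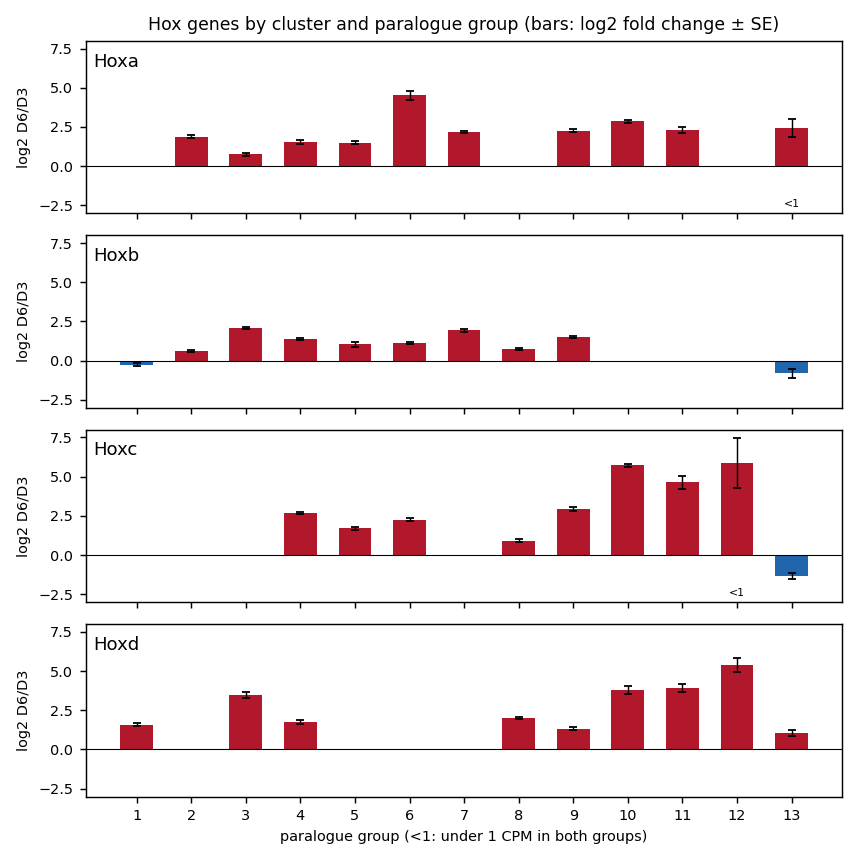
Bars give the log2 fold change of D6 over D3 ± SE of tested Hox genes, by cluster (rows) and paralogue group (x axis), red where called higher and blue where called lower. The blue bars shown stand at groups 1 and 13, such as Hoxb1 (-0.25 ± 0.09) and Hoxc13 (-1.35 ± 0.19), and the tall bars of group 12 rest on few counts (Hoxc12 had 0 counts on D3).

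The cofactors that bind DNA beside Hox proteins rose as well. 8 of 9 Meis, Pbx and Pknox genes were higher and 1 lower. Meis1 had 57.0 and 51.1 CPM in the D6 libraries, against 9.65 and 8.91 CPM in the D3 libraries (2.54 ± 0.07, adjusted p = 1.91e-16) and Meis2 had 138 and 121 CPM on D6, against 37.6 and 35.4 CPM on D3 (1.83 ± 0.06, adjusted p = 4.91e-16). Pknox2 rose by 1.57 ± 0.07. D6 lay above D3 in all libraries of these 3 genes. The single faller, Pbx4 (-0.31 ± 0.11, adjusted p = 0.0180), lost its call without D6 replicate 1, D6 replicate 2 or D3 replicate 1 (adjusted p = 0.0688, 0.0581 and 0.184).

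Factors of the NMP state itself went the other way. 11 of 12 were lower on D6, 4 of them by at least 2-fold. Nkx1-2, an early marker of the caudal epiblast, had 113 and 120.0 CPM in the D6 libraries, against 235 and 236 CPM in the D3 libraries (-1.01 ± 0.05, adjusted p = 1.99e-13), and Cdx1 had 72.7 and 85.4 CPM on D6, against 151 and 155 CPM on D3 (-0.95 ± 0.06, adjusted p = 2.69e-11). Cdx4 had 69.1 and 68.02 CPM on D6, against 93.4 and 96.0 CPM on D3 (-0.47 ± 0.05) and Cdx2 fell by 0.47 ± 0.04. Sp5, a target of Wnt signalling in this state, had 33.1 and 38.2 CPM on D6, against 77.9 and 89.4 CPM on D3 (-1.23 ± 0.07), and Sp8 29.4 and 26.0 CPM on D6, against 35.1 and 34.6 CPM on D3 (-0.33 ± 0.07). In each of these the D6 libraries lay below the D3 libraries. Their levels on day 2 averaged 3.45 CPM for Nkx1-2 and 0.623 CPM for Cdx1, so D6 lay between day 2 and D3 in level for these genes. Tbx6, a presomitic mesoderm factor, fell by 0.61 ± 0.21, but the call did not hold without D6 replicate 2 (adjusted p = 0.0629) and likewise on leaving out D3 replicate 2 (adjusted p = 0.115).

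Genes of the primitive streak and of the unsegmented mesoderm were divided. Of 12 streak genes 3 were higher and 6 lower, where 32.4% and 33.3% of all genes were. Aplnr, the receptor of apelin in nascent mesoderm, had 2.93 and 2.61 CPM on D6, against 11.3 and 12.2 CPM on D3 (-2.09 ± 0.14, adjusted p = 1.02e-10), and Mixl1 had 0.418 and 0.226 CPM on D6, against 10.2 and 12.3 CPM on D3 (-5.11 ± 0.22). Both were clearly lower on D6. Of 13 presomitic and clock genes 6 were higher and 5 lower. The count of fallers was 3 without D6 replicate 2 and 2 without D3 replicate 2. The risers included Notch genes of the clock, Lfng (10.6 and 11.8 CPM on D6, against 5.73 and 6.08 CPM on D3; 0.93 ± 0.11) and the Notch-induced Nrarp (32.4 and 30.9 CPM on D6, against 19.1 and 19.5 CPM on D3; 0.71 ± 0.06), whereas Rspo3, a Wnt enhancer of the tail bud, had 4.44 and 4.84 CPM on D6, against 18.5 and 17.1 CPM on D3 (-1.94 ± 0.10). Of 13 lateral plate and kidney mesoderm genes 3 were higher and 6 lower, beside the same shares of all genes. Wt1, a kidney and gonad factor, had 0.676 and 0.646 CPM on D6, against 4.14 and 4.16 CPM on D3 (-2.64 ± 0.19).

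Pluripotency genes were still read on both days. Of 14 naive pluripotency genes 12 were lower and 0 higher on D6. Nanog had 70.4 and 93.8 CPM in the D6 libraries, against 162 and 156 CPM in the D3 libraries (-0.96 ± 0.08, adjusted p = 2.76e-09) and Esrrb had 79.4 and 93.7 CPM on D6, against 152 and 158 CPM on D3 (-0.84 ± 0.06). Tfcp2l1 had 88.2 and 112 CPM on D6, against 187 and 195 CPM on D3 (-0.93 ± 0.07). In these 3 genes the D6 pair lay below the D3 pair, and D6 replicate 2 was the higher of the D6 pair. They did not decline further by day 7, when Nanog averaged 88.2, Esrrb 97.4 and Tfcp2l1 111 CPM. In RNA of a whole dish, fewer cells of a type and less RNA per cell cannot be told apart, here and in every result below.

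Several Wnt ligand genes fell, and feedback and antagonist genes of the pathway moved in both directions. Wnt ligands are secreted lipid-modified proteins, and CHIR99021 works downstream of them. Whether the cells' own ligands added to its action was not tested. Of 18 ligand genes 9 were lower and 5 higher. Wnt8a, a ligand of the streak, had 8.14 and 7.84 CPM in the D6 libraries, against 52.7 and 52.5 CPM in the D3 libraries (-2.72 ± 0.07, adjusted p = 7.38e-17). Wnt6 had 6.63 and 7.23 CPM on D6, against 50.03 and 63.5 CPM on D3 (-3.03 ± 0.11, adjusted p = 3.33e-15), Wnt5b had 19.2 and 21.1 CPM on D6, against 60.8 and 63.8 CPM on D3 (-1.63 ± 0.07), and Wnt3a had 0.451 and 0.742 CPM on D6, against 19.4 and 19.9 CPM on D3 (-5.03 ± 0.17). Each of these 4 ligands averaged less on days 2, 6 and 7 than on D3. Wnt4, by contrast, had 15.3 and 11.9 CPM on D6, against 3.34 and 4.84 CPM on D3 (1.73 ± 0.15, adjusted p = 2.09e-09) and averaged 28.1 CPM on day 7, and Wnt5a rose by 0.39 ± 0.08.

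Of the Wnt feedback and antagonist genes, 7 of 19 were higher and 6 lower, where 32.4% and 33.3% of all genes were. Nkd1, an inhibitor of Dishevelled, had 168 and 167 CPM in the D6 libraries, against 44.3 and 46.5 CPM in the D3 libraries (1.89 ± 0.07, adjusted p = 2.81e-15). Notum, an enzyme that removes the lipid from Wnt proteins, had 112 and 120.2 CPM on D6, against 33.9 and 36.3 CPM on D3 (1.73 ± 0.07, adjusted p = 4.12e-14). Axin2, part of the β-catenin destruction complex and the usual readout of the pathway, had 163 and 169 CPM on D6, against 155 and 169.6 CPM on D3 and did not pass (0.03 ± 0.06, adjusted p = 0.629). Nkd1 and Notum were thus higher in every D6 library, while the groups of Axin2 overlapped. Apcdd1, which binds Wnt at the membrane, had 23.8 and 26.2 CPM on D6, against 10.3 and 9.25 CPM on D3 (1.35 ± 0.10), and the secreted antagonists Sfrp2 and Frzb rose by 1.26 ± 0.05 and 1.83 ± 0.12. Kremen2, a co-receptor for Dkk proteins, had 0.611 and 0.517 CPM on D6, against 6.53 and 8.20 CPM on D3 (-3.70 ± 0.30).

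**Figure D3:**
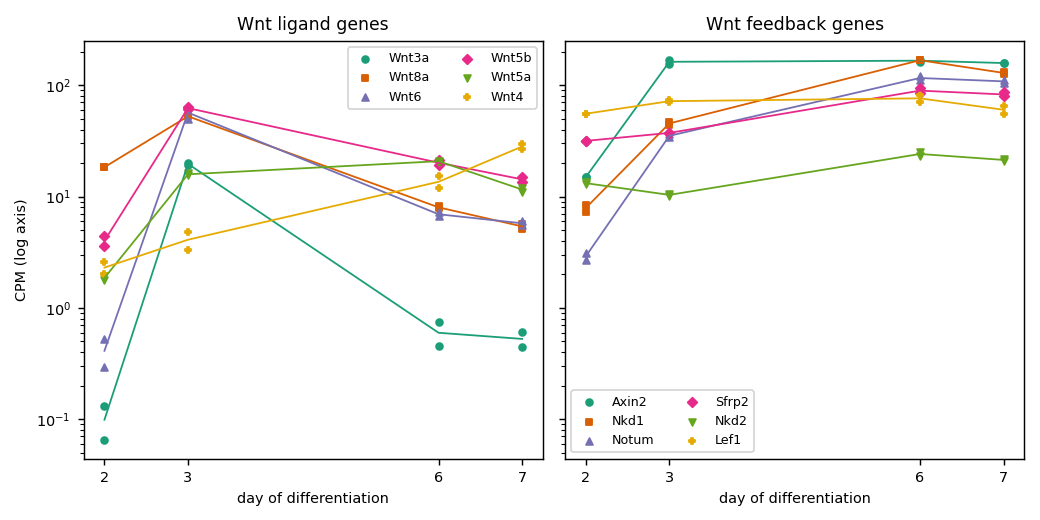
CPM (log axis) of 6 Wnt ligand genes (left) and 6 Wnt feedback genes (right) in every library of days 2, 3, 6 and 7 without Gdf11, with lines through group means. Wnt3a, Wnt8a, Wnt6 and Wnt5b peak on D3 and are lower on D6, while Nkd1 and Notum are higher on D6 than on D3 and Axin2 stays near its D3 level.

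The receptor side of the pathway changed member by member. Of 10 Frizzled receptors tested 8 were higher and 2 lower. Fzd9 had 19.2 and 18.1 CPM on D6, against 3.95 and 3.33 CPM on D3 (2.35 ± 0.10, adjusted p = 5.18e-14) and Fzd3 had 172 and 165 CPM on D6, against 71.6 and 71.5 CPM on D3 (1.24 ± 0.04, adjusted p = 1.65e-15), while Fzd6 had 18.2 and 18.9 CPM on D6, against 36.3 and 34.0 CPM on D3 (-0.92 ± 0.07). Ptk7, a co-receptor that acts in planar cell polarity, had 347 and 336 CPM on D6, against 729 and 745 CPM on D3 (-1.11 ± 0.04, adjusted p = 1.02e-15), among the 10 largest differences in CPM of the comparison. The Frizzled genes with the larger rises and Ptk7 therefore moved in opposite directions, with no overlap. Lef1, which carries the signal to DNA, did not pass (81.3 and 71.2 CPM on D6, against 70.9 and 73.0 CPM on D3; 0.08 ± 0.06, adjusted p = 0.245), but did without D6 replicate 2 (adjusted p = 0.0239).

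Fgf ligand genes were more often lower than higher, and the receptor gene Fgfr2 rose. Of 18 ligand genes 9 were lower and 4 higher, or 2 higher without D6 replicate 2. Fgf8, the ligand of the tail bud, had 12.1 and 11.8 CPM in the D6 libraries, against 30.7 and 36.1 CPM in the D3 libraries (-1.49 ± 0.09, adjusted p = 1.86e-11), and Fgf17 had 8.88 and 9.33 CPM on D6, against 20.04 and 23.7 CPM on D3 (-1.26 ± 0.11). Fgf15 of the neural tube had 40.9 and 41.3 CPM on D6, against 17.4 and 16.4 CPM on D3 (1.28 ± 0.06, adjusted p = 1.82e-13). Fgf8 and Fgf17 were lower and Fgf15 higher in every D6 library. Fgfr2 had 84.2 and 78.3 CPM in the D6 libraries, against 15.7 and 16.5 CPM in the D3 libraries (2.34 ± 0.06, adjusted p = 1.28e-17), while Fgfr1 stood at 172 and 164 CPM on D6, against 159 and 163 CPM on D3 (0.06 ± 0.04, adjusted p = 0.212) and did not pass. Genes that Fgf signalling induces had smaller changes than Fgf8 and Fgfr2. Spry4 fell by 0.54 ± 0.07, Dusp6 by 0.43 ± 0.05 and Etv4 by 0.36 ± 0.04, and Spry1 rose by 1.01 ± 0.07.

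Risers among retinoic acid genes included genes of synthesis, uptake and transport. 10 of 17 genes were higher and 5 lower. Aldh1a2, the enzyme that makes retinoic acid in somites, had 21.0 and 18.4 CPM in the D6 libraries, against 8.46 and 8.85 CPM in the D3 libraries (1.19 ± 0.10, adjusted p = 1.20e-09), and Rdh10, which makes its precursor, had 42.2 and 39.0 CPM on D6, against 15.2 and 16.6 CPM on D3 (1.35 ± 0.07, adjusted p = 2.16e-12). Stra6, a receptor for vitamin A uptake, had 138 and 138 CPM on D6, against 44.0 and 47.8 CPM on D3 (1.58 ± 0.05, adjusted p = 4.51e-16). All 3 were higher in each D6 library. Crabp2, which carries retinoic acid to the nucleus, had 354 and 317 CPM on D6, against 87.8 and 84.5 CPM on D3 (1.96 ± 0.05, adjusted p = 1.28e-17). Of the same steps, the synthesis gene Aldh1a3 (-1.06 ± 0.61) and the binding protein gene Crabp1 (-0.02 ± 0.06) did not pass. Cyp26a1, the enzyme that breaks retinoic acid down in the tail bud, had 13.3 and 14.3 CPM on D6, against 19.4 and 20.6 CPM on D3 (-0.54 ± 0.10, adjusted p = 1.20e-04). The receptor genes moved apart, with Rarb at 13.2 and 11.2 CPM on D6, against 4.23 and 3.55 CPM on D3 (1.64 ± 0.11, adjusted p = 1.00e-10) and Rarg at 45.4 and 47.8 CPM on D6, against 99.6 and 99.0 CPM on D3 (-1.09 ± 0.05, adjusted p = 1.00e-13). Rarb is a known target of retinoic acid, and Rarg is the receptor of early embryo and tail bud. Which vitamin A supplement the libraries had is not stated, and its part in these values was not tested.

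Notch pathway genes were mostly higher. Of 13 ligands, receptors and modifiers 9 were higher and 3 lower, or 1 lower without D6 replicate 1. The ligand gene Dll1 had 78.9 and 74.7 CPM in the D6 libraries, against 36.8 and 37.7 CPM in the D3 libraries (1.04 ± 0.05, adjusted p = 1.36e-12), while another ligand, Jag2, had 19.9 and 20.5 CPM on D6, against 73.7 and 68.4 CPM on D3 (-1.81 ± 0.06, adjusted p = 2.59e-15). Dll1 was higher and Jag2 lower in every D6 library. Of 9 Hes and Hey genes, the repressors that Notch switches on, 7 were higher and 2 lower, or 1 lower without D6 replicate 2 or either D3 library. Hes5, the Notch readout of neural progenitors, had 10.9 and 9.04 CPM on D6, against 2.57 and 2.68 CPM on D3 (1.92 ± 0.13, adjusted p = 3.89e-11), Hey1 had 18.3 and 16.9 CPM on D6, against 5.42 and 5.55 CPM on D3 (1.68 ± 0.09, adjusted p = 2.18e-12), and Hes1 had 76.3 and 63.4 CPM on D6, against 37.9 and 35.6 CPM on D3 (0.93 ± 0.08).

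Most Hedgehog pathway genes rose, while of the ligand genes Shh stayed near 0 and Dhh fell. 10 of 13 genes were higher and 1 lower (2 with library totals and 0 where genes had to reach 1 CPM in 2 libraries). The co-receptor genes Gas1 and Boc had the largest rises: Gas1 had 91.6 and 81.1 CPM in the D6 libraries, against 12.1 and 12.5 CPM in the D3 libraries (2.81 ± 0.07, adjusted p = 1.62e-17) and Boc had 75.4 and 64.0 CPM on D6, against 12.4 and 11.4 CPM on D3 (2.55 ± 0.08, adjusted p = 3.64e-16). The targets Gli1 and Ptch1 had 36.9 and 37.6 CPM on D6, against 18.2 and 16.7 CPM on D3 (1.09 ± 0.07, adjusted p = 3.22e-11) and 171 and 168 CPM on D6, against 89.0 and 81.9 CPM on D3 (0.99 ± 0.04, adjusted p = 6.40e-14). D6 was above D3 in every library of these 4 genes. Shh, the ligand of notochord and floor plate, stood at 0.225 and 0.226 CPM on D6, against 0.184 and 0.278 CPM on D3 (-0.03 ± 0.53, adjusted p = 0.963), and Ihh had 10.1 and 11.98 CPM on D6, against 6.37 and 7.71 CPM on D3 (0.65 ± 0.12). The gene lower was the ligand gene Dhh, with 2 counts in the D6 libraries together and 56 in the D3 libraries, a ratio of D3 over D6 of 26.7 (95% interval 7.06 to 226; counting error only).

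Ligands of the Bmp and Tgf-β families split. Of 24 genes 8 were higher and 13 lower, where 32.4% and 33.3% of all genes were. Gdf10 had 10.5 and 9.49 CPM in the D6 libraries, against 0.705 and 0.586 CPM in the D3 libraries (3.94 ± 0.16, adjusted p = 2.75e-14), Tgfb2 had 17.7 and 15.1 CPM on D6, against 6.59 and 7.12 CPM on D3 (1.26 ± 0.10, adjusted p = 1.71e-09), and Gdf11 rose by 1.32 ± 0.06. Nodal, Lefty1 and Gdf3, which act together in the epiblast and streak, fell by 1.19 ± 0.08, 1.25 ± 0.08 and 1.45 ± 0.08. Tgfb1 had 0.998 and 1.45 CPM on D6, against 6.59 and 7.80 CPM on D3 (-2.55 ± 0.19). The 3 risers and the 4 fallers each kept D6 and D3 apart. The receptor genes through which Gdf11 acts had modest rises: Tgfbr1 had 224 and 212 CPM on D6, against 123.1 and 116 CPM on D3 (0.87 ± 0.05, adjusted p = 1.49e-12), Acvr2a had 60.4 and 54.3 CPM on D6, against 32.5 and 32.6 CPM on D3 (0.82 ± 0.06, adjusted p = 2.30e-10) and Acvr2b rose by 0.45 ± 0.05, while Acvr1b fell by 0.37 ± 0.06. Smad3, which relays that signal, had 117 and 115 CPM on D6, against 54.8 and 58.3 CPM on D3 (1.04 ± 0.04, adjusted p = 5.55e-14). Extracellular antagonists were mostly lower, 9 of 13. Fst, the secreted inhibitor of activins and Gdf11, had 16.6 and 14.04 CPM in the D6 libraries, against 85.4 and 79.9 CPM in the D3 libraries (-2.43 ± 0.07, adjusted p = 3.79e-16), and Grem1, a Bmp antagonist, had 1.32 and 1.10 CPM on D6, against 7.69 and 7.74 CPM on D3 (-2.67 ± 0.16). Both were several-fold lower on D6. Noggin (Nog) was an exception, with 4.09 and 3.91 CPM on D6, against 0.980 and 1.33 CPM on D3 (1.79 ± 0.18). Of 6 Bmp response genes 4 were higher and 2 lower (1 without D6 replicate 1 and 0 without D3 replicate 2). Id4 and Msx2 fell by 0.44 ± 0.13 and 0.43 ± 0.14, while Id1 had 56.9 and 47.9 CPM on D6, against 16.0 and 14.99 CPM on D3 (1.76 ± 0.08) and Id3 had 108 and 99.3 CPM on D6, against 31.04 and 36.1 CPM on D3 (1.62 ± 0.08).

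Epithelial genes fell. All 20 tested members were called lower and by at least 2-fold, set against 14.1% of all genes, with changes from -2.57 to -1.25. Grhl2, a factor that keeps epithelia closed, had 3.89 and 4.78 CPM in the D6 libraries, against 20.4 and 22.0 CPM in the D3 libraries (-2.29 ± 0.10, adjusted p = 1.50e-13). Krt19, a keratin, had 8.75 and 9.04 CPM on D6, against 46.4 and 56.8 CPM on D3 (-2.54 ± 0.10, adjusted p = 2.18e-14), and the tight junction genes Ocln and Tjp3 fell by 2.07 ± 0.09 and 2.11 ± 0.12. St14, a membrane protease, had 34.6 and 44.1 CPM on D6, against 143 and 153 CPM on D3 (-1.91 ± 0.08). No D6 library reached a D3 library in these genes. Of 13 claudins, the strands of tight junctions, 4 were higher and 6 lower. Cldn4 had 27.8 and 30.4 CPM on D6, against 241 and 265 CPM on D3 (-3.12 ± 0.06, adjusted p = 1.87e-18), Cldn6 had 41.7 and 45.2 CPM on D6, against 137 and 155 CPM on D3 (-1.75 ± 0.07), Cldn7 had 11.1 and 12.8 CPM on D6, against 38.9 and 41.9 CPM on D3 (-1.76 ± 0.08) and Cldn3 fell by 2.60 ± 0.12, while Cldn12 rose by 0.29 ± 0.04, Cldn10 by 1.92 ± 0.40 and Cldn15 by 3.13 ± 0.26, with Cldn10 and Cldn15 under 4 CPM in each library.

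Cadherins, which hold cells to their own kind, moved in both directions. Of 19 tested, 6 were higher and 7 lower, shares near those of all genes, and 4 were lower where genes had to reach 1 CPM in 2 libraries. Cdh1, the epithelial cadherin, had 116 and 132 CPM in the D6 libraries, against 437 and 472 CPM in the D3 libraries (-1.88 ± 0.07, adjusted p = 9.07e-15), and Cdh3 had 6.89 and 8.59 CPM on D6, against 41.0 and 44.7 CPM on D3 (-2.47 ± 0.09). Cdh2, the neural and mesenchymal cadherin, had 279.7 and 257 CPM on D6, against 106 and 108 CPM on D3 (1.33 ± 0.05, adjusted p = 5.79e-15), and Cdh11 had 89.6 and 83.8 CPM on D6, against 9.68 and 11.5 CPM on D3 (3.03 ± 0.11, adjusted p = 4.14e-15). Cdh1 and Cdh3 were lower and Cdh2 and Cdh11 higher in every D6 library. Of 12 genes of mesenchymal transition 9 were higher and 1 lower. Zeb1, a repressor of Cdh1, had 58.6 and 53.3 CPM on D6, against 16.5 and 15.3 CPM on D3 (1.82 ± 0.07, adjusted p = 1.31e-14), Prrx1 had 31.8 and 31.8 CPM on D6, against 6.80 and 5.80 CPM on D3 (2.33 ± 0.10, adjusted p = 6.70e-14), and Snai1 had 5.44 and 6.81 CPM on D6, against 6.46 and 6.63 CPM on D3 and did not pass (-0.10 ± 0.13, adjusted p = 0.537).

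Clustered protocadherins give neurons their surface identity and lie in 3 adjacent gene clusters, split here by name after the values were seen. Of the Pcdhb genes 16 of 20 were higher and 0 lower, with a median of 2.54. The Pcdha genes had 1 higher and 3 lower of 9, and the Pcdhg genes 4 and 4 of 22. Pcdhb22 had 10.3 and 9.94 CPM on D6, against 3.58 and 3.55 CPM on D3 (1.51 ± 0.13, adjusted p = 1.83e-09) and Pcdhb19 had 5.18 and 5.49 CPM on D6, against 1.01 and 0.709 CPM on D3 (2.63 ± 0.22, adjusted p = 1.50e-09). Both were higher in each D6 library. Genes of these clusters are near copies of each other and most were under 5 CPM, so the share of each member is uncertain. Outside the clusters Pcdh8, a protocadherin of the presomitic mesoderm, rose by 2.43 ± 0.15, and Pcdh1 had 7.89 and 9.17 CPM on D6, against 44.98 and 45.00 CPM on D3 (-2.40 ± 0.09).

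Matrix genes moved in both directions. Of 39 collagen chains 15 were higher and 20 lower, where 32.4% and 33.3% of all genes were. Among the chains that form fibrils, Col1a1 had 7.31 and 9.04 CPM in the D6 libraries, against 101 and 95.5 CPM in the D3 libraries (-3.58 ± 0.10, adjusted p = 1.25e-16), Col1a2 fell by 4.32 ± 0.10 and Col5a2 had 2.54 and 2.49 CPM on D6, against 31.9 and 28.6 CPM on D3 (-3.59 ± 0.12). Col3a1 had 180.1 and 166 CPM on D6, against 27.1 and 27.9 CPM on D3 (2.66 ± 0.09, adjusted p = 8.70e-16) and Col2a1 had 182 and 162 CPM on D6, against 52.3 and 52.2 CPM on D3 (1.72 ± 0.06, adjusted p = 1.97e-15). The type I and V chains were lower and the type II and III chains higher in every D6 library. Of the basement membrane chains, Col4a5 had 121 and 117 CPM on D6, against 31.01 and 32.5 CPM on D3 (1.91 ± 0.06) and Col4a6, its neighbour, 109 and 103 CPM on D6, against 21.0 and 26.8 CPM on D3 (2.15 ± 0.07), while Col4a1 rose by 0.53 ± 0.09. Lox, which cross-links collagen, had 0.772 and 0.323 CPM on D6, against 36.2 and 34.8 CPM on D3 (-6.01 ± 0.20, or -6.76 without D6 replicate 1). Fbn2, a microfibril protein, had 178 and 166 CPM on D6, against 24.1 and 24.5 CPM on D3 (2.82 ± 0.07, adjusted p = 1.54e-17), and Sparcl1 had 121 and 108 CPM on D6, against 1.19 and 1.33 CPM on D3 (6.50 ± 0.09, adjusted p = 2.34e-20). Thbs1, which activates latent Tgf-β, had 33.5 and 34.2 CPM on D6, against 143 and 158 CPM on D3 (-2.15 ± 0.09), and Spp1 33.8 and 44.6 CPM on D6, against 177 and 162 CPM on D3 (-2.11 ± 0.09).

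Markers of embryo fibroblasts, the feeder cells of the ESC culture, were mostly lower. The list shares Col1a1, Col1a2 and Col3a1 with the collagens above, so its count and sum are not independent of them. Of 15 markers 12 were lower and 3 higher, and their summed level was 331 and 311 CPM on D6, against 441 and 437 CPM on D3. Col3a1, a riser, alone gave 180.1 and 166 CPM of the D6 sums and 27.1 and 27.9 CPM of the D3 sums. The fibroblast genes Thy1 and Dcn had 0.354 and 0.420 CPM on D6, against 8.15 and 7.43 CPM on D3 (-4.32 ± 0.20) and 0.451 and 0.129 CPM on D6, against 7.60 and 8.61 CPM on D3 (-4.78 ± 0.29). The change of Dcn was -5.93 without D6 replicate 1 and -4.15 without D6 replicate 2. Col3a1, Fap and Pdgfrb, also on the list, rose by 2.66 ± 0.09, 3.05 ± 0.22 and 0.94 ± 0.10. No tested marker was at 0 in a D6 or D3 library, and the part of feeder cells in the matrix changes was not tested.

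**Figure D4:**
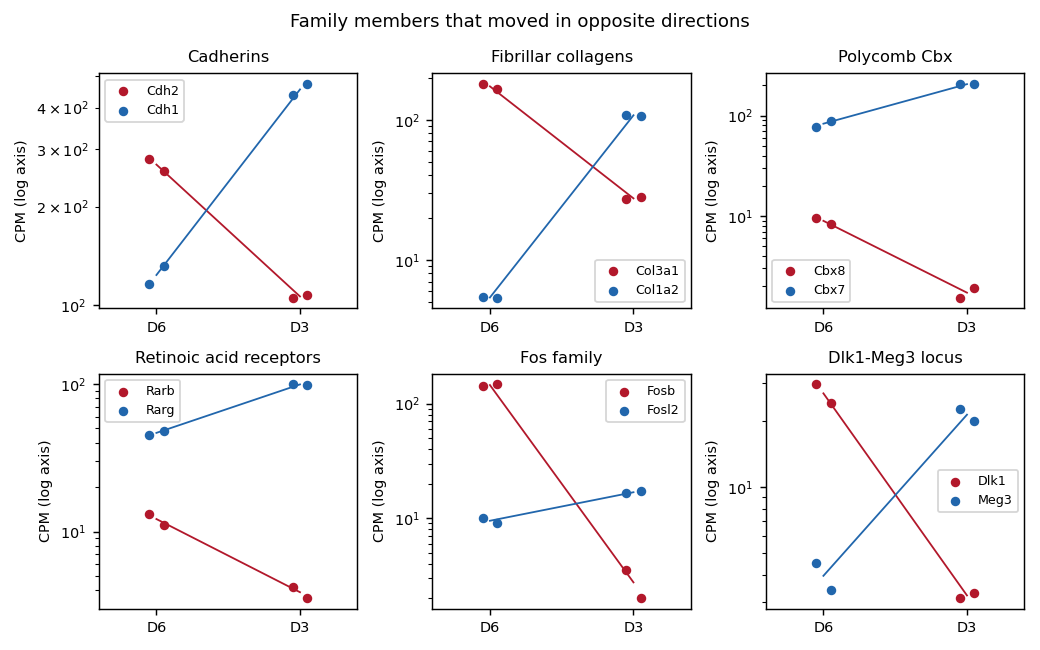
CPM (log axes, each panel with its own range) of paired genes in each D6 and D3 library, with lines between group means. In each panel the red gene is higher and the blue gene lower on D6, for instance Cdh2 (1.33 ± 0.05) and Cdh1 (-1.88 ± 0.07), with no overlap between the groups.

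Guidance cues that steer axons and migrating cells were more often higher than lower. Of 30 semaphorins, plexins and neuropilins 16 were higher and 10 lower. The repellent Sema3a had 182 and 166 CPM in the D6 libraries, against 14.6 and 14.7 CPM in the D3 libraries (3.57 ± 0.06, adjusted p = 9.51e-20), and its family's receptor Nrp2 had 157 and 161 CPM on D6, against 36.3 and 36.3 CPM on D3 (2.14 ± 0.04, adjusted p = 1.73e-18). Sema5b had 77.7 and 81.2 CPM on D6, against 18.05 and 18.9 CPM on D3 (2.10 ± 0.06), and Sema6a had 43.0 and 42.5 CPM on D6, against 97.2 and 103 CPM on D3 (-1.23 ± 0.05). Of the Slit and netrin families, Slit1 had 27.9 and 24.8 CPM on D6, against 2.94 and 2.44 CPM on D3 (3.29 ± 0.11, adjusted p = 7.64e-16), the netrin receptor Dcc had 15.2 and 16.3 CPM on D6, against 1.96 and 1.60 CPM on D3 (3.14 ± 0.15, adjusted p = 3.71e-13), and Ntn1 itself had 70.7 and 65.2 CPM on D6, against 129.9 and 129 CPM on D3 (-0.93 ± 0.05). The receptor Dcc was higher and its ligand lower in each D6 library. Of 22 ephrins and Eph receptors, 11 were higher and 9 lower. Epha5 and Epha3 rose by 3.08 ± 0.10 and 4.20 ± 0.17, while Epha1 had 30.0 and 33.6 CPM on D6, against 132 and 140.3 CPM on D3 (-2.10 ± 0.06). Among adhesion genes of neurons and synapses 20 of 32 were higher, led by Lrrn3 (6.40 ± 0.22). Ncam1, the neural cell adhesion molecule, had 173 and 146 CPM on D6, against 23.5 and 23.8 CPM on D3 (2.75 ± 0.07, adjusted p = 2.66e-17).

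Most genes of a list that joins contractile genes and Yap targets fell. Of 18 genes 16 were lower and 2 higher. Tpm1, a tropomyosin, had 239.9 and 240.1 CPM in the D6 libraries, against 599 and 706 CPM in the D3 libraries (-1.44 ± 0.06, adjusted p = 1.09e-14), Tagln had 30.9 and 32.3 CPM on D6, against 129 and 159 CPM on D3 (-2.19 ± 0.08, adjusted p = 3.92e-15) and Cnn1, a calponin, had 1.54 and 1.45 CPM on D6, against 13.2 and 16.6 CPM on D3 (-3.31 ± 0.15). D3 replicate 2 was the highest library in all 3. The classical Yap targets moved less: Cyr61 rose by 0.43 ± 0.05, and Ctgf fell by 0.23 ± 0.07, a call lost without D6 replicate 1 (adjusted p = 0.183) or D3 replicate 2 (adjusted p = 0.0692).

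Immediate early genes, which answer growth factors and handling within minutes, did not rise as 1 group. 13 of 22 were higher and 9 lower, where 32.4% and 33.3% of all genes were. Fosb had 143 and 148 CPM in the D6 libraries, against 3.49 and 2.005 CPM in the D3 libraries (5.72 ± 0.12, adjusted p = 2.60e-18), Fos had 143 and 144 CPM on D6, against 21.5 and 16.3 CPM on D3 (2.92 ± 0.09, adjusted p = 6.25e-16) and Jun had 95.2 and 111 CPM on D6, against 49.1 and 48.2 CPM on D3 (1.08 ± 0.09). The Fos relatives Fosl2 and Fosl1 had 9.98 and 9.01 CPM on D6, against 16.5 and 17.2 CPM on D3 (-0.83 ± 0.09) and 0.451 and 0.549 CPM on D6, against 3.13 and 3.27 CPM on D3 (-2.67 ± 0.24), and Nr4a1 had 11.9 and 11.98 CPM on D6, against 27.5 and 30.9 CPM on D3 (-1.29 ± 0.08, adjusted p = 1.72e-11). Fosb, Fos and Jun were higher, and Fosl1, Fosl2 and Nr4a1 lower, in every D6 library. Levels of Fosb, Fos and Jun were higher again on day 7, when Fosb averaged 254, Fos 245 and Jun 342 CPM. Cells were detached with trypsin before lysis, and its part in these levels was not tested.

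RNAs of Polycomb genes, which keep developmental genes silent, moved in both directions. 9 of 20 were higher and 10 lower. Cbx7, the chromodomain subunit known from ESCs, had 77.8 and 88.3 CPM in the D6 libraries, against 205 and 207 CPM in the D3 libraries (-1.31 ± 0.05, adjusted p = 3.68e-15). Cbx8 and Cbx2, known from differentiated cells, had 9.62 and 8.26 CPM on D6, against 1.53 and 1.91 CPM on D3 (2.37 ± 0.14, adjusted p = 1.30e-11) and 142 and 134 CPM on D6, against 81.8 and 80.8 CPM on D3 (0.76 ± 0.05). Cbx7 was lower, and Cbx8 and Cbx2 higher, in each D6 library. Bmi1 had 72.1 and 69.2 CPM on D6, against 31.6 and 29.1 CPM on D3 (1.22 ± 0.05, adjusted p = 1.01e-13) and Phc2 rose by 0.45 ± 0.05 while Phc1 fell by 0.59 ± 0.04. Of the histone methyltransferases, Ezh2 had 298 and 282 CPM on D6, against 199 and 199 CPM on D3 (0.54 ± 0.04) and Ezh1 had 20.5 and 23.95 CPM on D6, against 44.2 and 41.7 CPM on D3 (-0.95 ± 0.07). Dnmt3b and Dnmt3l, which set new DNA methylation, fell by 1.00 ± 0.04 and 1.19 ± 0.08, and Tet3 rose by 0.67 ± 0.05.

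Imprinted genes, read from a single parental copy, included some of the largest differences in CPM. Of 22 genes 12 were higher and 9 lower. Igf2, a fetal growth factor, had 865 and 869 CPM in the D6 libraries, against 147 and 168 CPM in the D3 libraries (2.46 ± 0.05, adjusted p = 1.27e-18), and H19, its neighbour, had 112 and 110.0 CPM on D6, against 54.5 and 62.2 CPM on D3 (0.93 ± 0.09, adjusted p = 2.49e-08). Mest had 931 and 906 CPM on D6, against 286 and 291 CPM on D3 (1.67 ± 0.03, adjusted p = 1.87e-18), Plagl1, a regulator of imprinted genes, had 415 and 389 CPM on D6, against 128 and 115 CPM on D3 (1.73 ± 0.05, adjusted p = 1.15e-16), and Grb10 rose by 0.95 ± 0.04. All 5 were higher on D6 in every library. The Dlk1 and Meg3 locus moved in both directions. Dlk1, expressed from the paternal copy, had 29.5 and 24.1 CPM on D6, against 3.13 and 3.30 CPM on D3 (3.06 ± 0.11, adjusted p = 6.59e-15). Meg3 and Rian, noncoding RNAs of the maternal copy, had 4.51 and 3.39 CPM on D6, against 22.8 and 20.1 CPM on D3 (-2.44 ± 0.12, adjusted p = 2.86e-13) and 6.47 and 6.13 CPM on D6, against 17.2 and 16.3 CPM on D3 (-1.41 ± 0.10, adjusted p = 1.20e-10). The D6 libraries therefore held more Dlk1 and less Meg3 and Rian than any D3 library. Phlda2, a placental growth repressor, had 2.19 and 2.71 CPM on D6, against 23.3 and 22.1 CPM on D3 (-3.21 ± 0.11, adjusted p = 2.21e-15).

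Ccnd1 and Ccnd2, D-type cyclins that carry cells through G1, and Myc had larger rises than any gene of the mitosis and replication lists. Ccnd2 had 753 and 676 CPM in the D6 libraries, against 157 and 152 CPM in the D3 libraries (2.21 ± 0.05, adjusted p = 1.28e-17), Ccnd1 had 714 and 669.7 CPM on D6, against 241 and 239.7 CPM on D3 (1.53 ± 0.04, adjusted p = 3.08e-17) and Myc had 66.4 and 61.8 CPM on D6, against 18.8 and 18.9 CPM on D3 (1.77 ± 0.07, adjusted p = 1.03e-14). Each was higher in every D6 library. Hmga2, a chromatin protein and target of let-7, had 635 and 585 CPM on D6, against 129 and 133 CPM on D3 (2.22 ± 0.05, adjusted p = 5.47e-18), while Lin28a, which blocks let-7, fell by 0.53 ± 0.04. The cell cycle inhibitor Cdkn1c rose by 1.03 ± 0.06 and Cdkn1b fell by 0.52 ± 0.05. 13 of 18 DNA replication genes were higher, none of them 2-fold, led by Rfc3 (81.2 and 78.2 CPM on D6, against 47.4 and 46.6 CPM on D3; 0.76 ± 0.05).

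Of 18 mitosis genes 14 rose, none 2-fold, with a median of 0.26. Top2a, a topoisomerase that separates chromosomes, had 971 and 951 CPM in the D6 libraries, against 664 and 689 CPM in the D3 libraries (0.51 ± 0.03) and Plk1, a mitotic kinase, had 142 and 139.8 CPM on D6, against 116 and 119.8 CPM on D3 (0.26 ± 0.04). Ccnb2, a B-type cyclin, had 91.8 and 94.3 CPM on D6, against 129 and 130.3 CPM on D3 (-0.48 ± 0.05, adjusted p = 3.43e-08) and Cdc20, an activator of the anaphase complex, had 194 and 197 CPM on D6, against 219 and 217 CPM on D3 (-0.15 ± 0.04, adjusted p = 0.00102). Plk1 was higher and Ccnb2 and Cdc20 lower in every D6 library. The promoters of these 3 genes are shown because they share motifs that are known to control mitosis genes while their RNA moved in different directions. They come from RefSeq (GRCm38.p6, the assembly also called mm10), run from 250 bases before to 50 bases after the gene start, and have the cell cycle homology region (CHR, TTTGAA) and CCAAT in capitals, searched on both strands.
Plk1, chr7:122159185-122159484, plus strand: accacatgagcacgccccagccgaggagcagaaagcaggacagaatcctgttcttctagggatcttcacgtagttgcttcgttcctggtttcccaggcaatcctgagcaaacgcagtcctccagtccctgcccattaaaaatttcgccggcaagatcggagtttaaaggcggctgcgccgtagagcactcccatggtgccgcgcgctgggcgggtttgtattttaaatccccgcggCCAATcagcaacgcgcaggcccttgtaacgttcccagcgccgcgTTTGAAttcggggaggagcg
Ccnb2, chr9:70421505-70421804, minus strand: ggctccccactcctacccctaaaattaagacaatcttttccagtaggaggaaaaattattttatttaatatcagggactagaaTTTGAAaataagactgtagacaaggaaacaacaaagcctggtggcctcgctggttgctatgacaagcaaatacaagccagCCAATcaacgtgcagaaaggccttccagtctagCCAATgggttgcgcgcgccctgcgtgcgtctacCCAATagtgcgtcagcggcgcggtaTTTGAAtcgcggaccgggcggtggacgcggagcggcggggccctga
Cdc20, chr4:118437294-118437593, minus strand: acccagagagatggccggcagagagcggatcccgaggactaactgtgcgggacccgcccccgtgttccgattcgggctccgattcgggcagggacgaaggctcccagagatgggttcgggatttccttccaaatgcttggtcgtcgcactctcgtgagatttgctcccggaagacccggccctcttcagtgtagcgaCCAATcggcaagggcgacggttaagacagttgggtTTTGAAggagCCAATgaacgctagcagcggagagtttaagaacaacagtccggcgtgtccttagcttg
All 3 hold both motifs. The CHR begins 30 bases after the start in Plk1, 4 bases after it and again 167 bases before it in Ccnb2, and 18 bases before it in Cdc20. Promoters were found for 15 of the 18 mitosis genes, and 11 of these (73.3%) held the CHR, against 20.2% of the 27025 genes in the table. CCAAT was in 14 (93.3%), against 41.1%. A match to these letters describes the sequence only.

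Cholesterol synthesis genes rose almost as a whole, 20 of 22 with 0 lower and none 2-fold, and a median of 0.49. Nsdhl, a late enzyme of the pathway, had 179 and 187 CPM in the D6 libraries, against 92.2 and 93.5 CPM in the D3 libraries (0.98 ± 0.04, adjusted p = 1.23e-13), and Cyp51 had 439 and 435 CPM on D6, against 288 and 295 CPM on D3 (0.58 ± 0.03). Hmgcs1, at the entry of the pathway, had 1032 and 965 CPM on D6, against 504 and 503 CPM on D3 (0.99 ± 0.04, adjusted p = 7.65e-15). All 3 were higher in every D6 library. Of these, the RefSeq promoter of Hmgcs1 is shown as that of the gene with the highest CPM, with the SREBP-type motif CACNCCA and CCAAT, whose matches lie on the other strand and so read as the reverse complement, in capitals.
Hmgcs1, chr13:119690101-119690400, plus strand: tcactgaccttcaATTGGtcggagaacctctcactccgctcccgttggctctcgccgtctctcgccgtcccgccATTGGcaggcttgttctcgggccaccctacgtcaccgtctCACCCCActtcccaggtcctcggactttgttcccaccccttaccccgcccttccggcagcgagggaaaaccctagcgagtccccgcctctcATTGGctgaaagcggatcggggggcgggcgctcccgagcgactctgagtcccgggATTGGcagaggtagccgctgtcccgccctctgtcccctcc
The SREBP-type match begins 136 bases before the start. Over the list the motif was in 4 of 16 promoters (25%), close to the 20.6% of all genes. Scd2, which makes unsaturated fatty acids, showed the largest difference in CPM of all genes with a 2-fold change, with 3824 and 3650.2 CPM on D6, against 1532 and 1588 CPM on D3 (1.26 ± 0.03, adjusted p = 4.56e-17).

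Other motifs were searched in the same way. TCAAAG, the Tcf core, was in 4 of 10 NMP factor promoters and 2 of 11 Wnt feedback promoters, against 18.2% of all. The cAMP response element TGACGTC was in 4 of 18 immediate early promoters, against 3.6%, and the CArG box in 2, against 1.81%. Windows of this length miss elements further away.

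Of 22 genes of glycolysis and the hypoxia response 13 were higher and 6 lower, with a median of 0.20. Slc2a3, a glucose transporter of high affinity, had 779.9 and 871 CPM in the D6 libraries, against 2674 and 2869 CPM in the D3 libraries (-1.75 ± 0.05, adjusted p = 6.04e-16). Pdk1, a pyruvate dehydrogenase kinase, had 73.7 and 87.1 CPM on D6, against 237 and 239 CPM on D3 (-1.56 ± 0.06, adjusted p = 9.07e-15). Vegfa, a hypoxia target, had 112 and 111 CPM on D6, against 39.1 and 38.1 CPM on D3 (1.53 ± 0.04, adjusted p = 1.70e-16) and Ldha had 781 and 823 CPM on D6, against 466 and 479.6 CPM on D3 (0.76 ± 0.04). Slc2a3 and Pdk1 were lower, Vegfa and Ldha higher, in every D6 library, although all 4 are known to answer low oxygen. 46 of 78 nuclear genes of oxidative phosphorylation were higher and 7 lower, or 4 lower without D6 replicate 1 and 11 with library totals, with a median of 0.18. Grsf1, which handles RNA inside mitochondria, had 359 and 392 CPM on D6, against 974 and 992 CPM on D3 (-1.39 ± 0.04, adjusted p = 1.56e-16), a fall that ran against most of the mitochondrial genes.

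Chaperone and amino acid genes rose. Of 16 genes of the unfolded protein response 14 were higher. Hspa5, the main chaperone of the endoplasmic reticulum, had 1329.9 and 1332 CPM in the D6 libraries, against 694 and 725 CPM in the D3 libraries (0.91 ± 0.03, adjusted p = 9.08e-15), and Dnajb9 had 34.0 and 30.0 CPM on D6, against 11.6 and 11.1 CPM on D3 (1.50 ± 0.08, adjusted p = 1.91e-12). Of 20 genes of the amino acid response and serine synthesis 13 were higher and 4 lower. Mthfd2, of mitochondrial folate metabolism, had 174 and 161 CPM on D6, against 58.1 and 58.7 CPM on D3 (1.52 ± 0.04, adjusted p = 1.79e-16), Psat1, of serine synthesis, had 751 and 713 CPM on D6, against 376 and 366 CPM on D3 (0.98 ± 0.03), while Ddit4, an inhibitor of the growth kinase mTOR, had 74.2 and 72.8 CPM on D6, against 244 and 241 CPM on D3 (-1.72 ± 0.04, adjusted p = 8.28e-18). Mthfd2 and Psat1 were higher and Ddit4 lower in each D6 library. Of 18 p53 targets 14 were lower. Trp53inp1 had 150.0 and 149 CPM on D6, against 509 and 473 CPM on D3 (-1.72 ± 0.05, adjusted p = 1.92e-16) and Perp had 12.3 and 13.4 CPM on D6, against 94.7 and 94.1 CPM on D3 (-2.88 ± 0.07, adjusted p = 3.28e-17). The count of p53 targets called higher, 3, was 1 with upper-quartile scaling and 0 with library totals. It was also lower without D6 replicate 1 or D3 replicate 2.

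Other genes with the largest changes were ranked by log2 fold change among called genes with at least 10 CPM in a group. Predicted and Riken genes were left out. Only genes without overlap of D6 and D3 were ranked, so their lack of overlap was set by the choice. Frem1, a basement membrane protein, had 49.0 and 47.9 CPM in the D6 libraries, against 1.75 and 2.10 CPM in the D3 libraries (4.65 ± 0.10, adjusted p = 1.91e-18), and Fat4, a giant cadherin of planar polarity, had 29.0 and 27.2 CPM on D6, against 1.62 and 1.63 CPM on D3 (4.10 ± 0.11, adjusted p = 9.61e-17). S100g, a calcium-binding protein, had 40.9 and 50.2 CPM on D6, against 2.79 and 3.05 CPM on D3 (3.96 ± 0.14). All 3 were low on day 2 (0.657, 1.35 and 0.214 CPM). Cp, the copper protein ceruloplasmin, had 16.2 and 13.4 CPM on D6, against 0.858 and 0.740 CPM on D3 (4.20 ± 0.16), and Tshz2, a zinc-finger factor, had 15.6 and 16.1 CPM on D6, against 0.797 and 0.925 CPM on D3 (4.20 ± 0.14). Among the steepest fallers, Prph, the neuronal filament peripherin, had 0.933 and 0.936 CPM on D6, against 63.1 and 56.1 CPM on D3 (-5.99 ± 0.12, adjusted p = 1.27e-18), and Bgn, the matrix proteoglycan biglycan, had 1.71 and 2.13 CPM on D6, against 38.4 and 36.1 CPM on D3 (-4.28 ± 0.14, adjusted p = 7.31e-16). Gstt2, a glutathione transferase, had 3.15 and 3.55 CPM on D6, against 53.3 and 48.8 CPM on D3 (-3.93 ± 0.09, adjusted p = 9.30e-18). These fallers had stood near their D3 level on day 2, at 64.7, 32.4 and 66.4 CPM. Atp2a3, a calcium pump, Vgf, a neuropeptide precursor, and Klc3, a kinesin light chain, fell by 3.91 ± 0.20, 3.80 ± 0.16 and 3.71 ± 0.13.

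The D6 libraries differed slightly from each other in the genes that separated D6 from D3, sets that were themselves chosen with these libraries. Among the 2-fold risers with at least 5 CPM in a group, 81.7% of 605 were higher in D6 replicate 1 than in replicate 2, and among the 2-fold fallers 22.9% of 1077, against 53.9% of all genes at that level. By list, replicate 1 was the higher in all 14 neural progenitor genes, all 11 somite genes and all 15 Hox genes of groups 5 to 9. It was the lower in all 13 naive pluripotency and all 18 epithelial genes. The size of the gap was small, a median log2 ratio of replicate 1 over 2 of 0.25 for the somite genes and -0.30 for the naive genes. Between the D3 libraries, 55.2% of the risers and 45.7% of the fallers were higher in replicate 1. The epithelial genes had a gap of the same sign on both days, a median of -0.17 in D6 and -0.11 in D3, where 1 of the 18 was higher in replicate 1. Leaving out either D6 library kept 87.2% and 89.1% of the 2-fold risers.

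**Figure D5:**
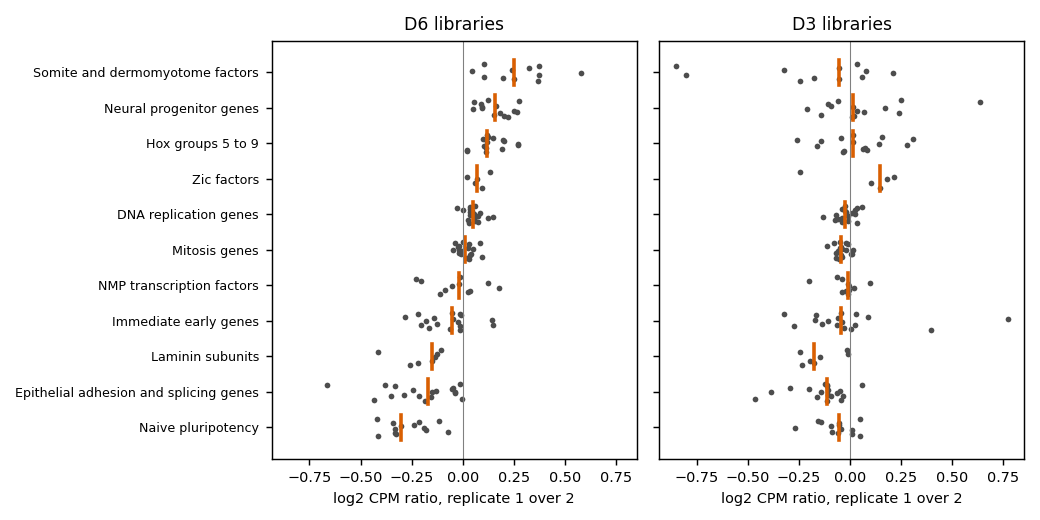
Log2 ratio of CPM between replicate 1 and replicate 2 within D6 (left) and within D3 (right) for list members with at least 5 CPM in a group, with medians as orange bars. In D6 the somite, neural progenitor and Hox genes lie right of 0 and the epithelial and naive pluripotency genes left of it, with medians of 0.25 and -0.30 at the ends.

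Markers of other cell types differed by type. Of 11 endothelial markers 6 were lower and 0 higher (1 without D6 replicate 1), of 13 neural crest markers 7 were higher and 4 lower, and of 7 surface ectoderm markers 6 were lower. The surface ectoderm markers summed to 72.1 and 73.2 CPM on D6, against 109.7 and 108 CPM on D3. Of 9 trophoblast markers 8 were lower and 1 higher, of 7 node and notochord markers 2 and 3, and of 10 forebrain and midbrain markers 4 and 3. Of 12 endoderm markers 6 were higher and 1 lower (2 with library totals), with sums of 124 and 135 CPM on D6, against 87.8 and 99.5 CPM on D3. The part of these cell types in other results was not tested. Sox17 had 17.5 and 21.6 CPM on D6, against 15.8 and 18.5 CPM on D3 (0.19 ± 0.11, adjusted p = 0.146), with overlapping groups, and passed without D6 replicate 1 (adjusted p = 0.0225). Cxcr4, a chemokine receptor of endoderm and mesoderm, had 39.6 and 37.4 CPM on D6, against 12.6 and 11.6 CPM on D3 (1.67 ± 0.07, adjusted p = 3.01e-14). Ednrb, an endothelin receptor of neural crest, rose by 2.69 ± 0.11, adjusted p = 5.07e-14, while the crest factor Sox10 averaged 0.129 CPM on D6 and 1.21 CPM on D3.

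The 2-fold changes were also set beside the response to Gdf11 on day 7, a comparison of 2 libraries with Gdf11 (50 ng/ml for 24 h; D7G) and 2 without (D7) that shares no library with D6 or D3. Of the 2-fold fallers, 31.6% were called higher with Gdf11, and of the 2-fold risers 28.2% were higher and 23.8% lower, where 22.5% and 18.2% of all tested genes were. Of the fallers, 748 had under 1 CPM and 1150 had 1 to 10 CPM in their higher group, which left little room to call a further fall on day 7, so no share lower is set against all genes. The median change with Gdf11 was 0.31 for the fallers, 0.06 for the risers and 0.02 for all genes. The same limit may raise the fallers' median and their share higher, and its part was not tested. Among genes named above, Col1a1 averaged 241 CPM in D7G and 27.3 CPM in D7 libraries, Fst 117 and 15.1 CPM, and Thbs1 279 and 46.8 CPM. These 3 genes had fallen on D6. Meox1, which had risen, averaged 2.56 CPM in D7G and 13.7 CPM in D7 libraries, and Crabp2 124 and 458 CPM. Other genes named above moved further in the direction they had taken on D6. Nkx1-2 and Fgf8, which had fallen, averaged 24.8 and 6.10 CPM in D7G and 39.9 and 11.3 CPM in D7 libraries. Cdh11 and Col3a1, which had risen, averaged 292 and 659 CPM in D7G and 80.1 and 261 CPM in D7 libraries.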

How the data were processed

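RNA-seq was run on 10 libraries, 2 each of days 2, 3, 6 and 7 and of day 7 with Gdf11 for 24 h. The authors deposited raw read counts per gene in 2 tables, 1 by gene symbol (used here, 52459 symbols) and 1 by Ensembl gene (an alternative). HISAT2 2.1.0, STAR, featureCounts 1.6.3, limma and the mm10 build are named, without roles, per the submitters' processing notes, and whether strand was used is not given in the sources used here. Library totals ran from 31078950 to 33418015 counts. Intervals and floors cover counting error only. Counts were fitted with edgeR 4.0.16 (R 4.3.3; filterByExpr, TMM, quasi-likelihood test, 1 coefficient per group, 5 residual degrees of freedom over all 10 libraries, no covariate), and the same script was tested on simulated data. Adjusted p values are Benjamini-Hochberg values over all 18818 genes, and SE is the size of the log2 fold change over the square root of F. The 95% intervals of ratios are exact binomial intervals, and floors are 3 counts over a group. CPM is not corrected for gene length, so levels are compared between libraries, not between genes.

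The genes named were the 12 largest rises and falls with at least 10 CPM, the 10 largest CPM differences, up to 5 leading members of each list and a few of NMP biology. The rises and falls were taken from called genes whose groups did not overlap, predicted and Riken genes left out. Other list members were added after their values were seen, and some members are not reported here. Gene lists and members were chosen with earlier results of these data known. Alternatives were DESeq2 1.42.0, limma-voom (limma 3.58.1), RLE, upper-quartile or library-total scaling, other filters, the second table, the 4 libraries alone, a replicate block and leaving out each library. The correlation over genes of the replicate 1 minus replicate 2 differences of D6 and D3 was 0.075, so replicate numbers were not treated as pairs. Promoters were taken from RefSeq, from 250 bases before to 50 after the start.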

Additional observations from a re-analysis of the deposited data

How the results depend on the processing

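The counts over all genes stayed within 1.5 times their reported value under every alternative run. Against 6104 genes higher and 6263 lower on D6, the alternatives other than leaving out a library gave 5126 to 6275 higher and 5337 to 7186 lower, and at least 2-fold they gave 987 to 1446 higher and 2090 to 2932 lower. Leaving out 1 library gave 5433 to 5757 higher and 5592 to 5835 lower, and 1237 to 1288 and 2452 to 2766 at least 2-fold. With 1 library left in a group, that library was assumed to vary like the other groups. With the replicate number as a replicate block, 6149 genes were higher and 6308 lower, with 99.4% of the 2-fold risers and 99.7% of the 2-fold fallers shared with the fit without it; the labels do not say that the numbers pair the libraries. Scaling moved the median change of all genes by less than 0.1 (from -0.0844 with library totals to 0.0031 with RLE factors).

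Of 3579 values of named genes under alternatives, 3538 kept their sign and their side of the threshold, 21 lost the call, 2 gained it and 18 changed sign. The sign changes were all in genes that did not pass, and their cause was not tested. Nes changed to -0.0453 with upper-quartile factors, -0.0757 with library totals, -0.0093 with at least 1 CPM in 2 libraries and -0.0048 in the second table. Axin2 changed to -0.0138 with upper-quartile factors and -0.0441 with library totals, Shh to 0.0017 with limma-voom and 0.19 in the second table, Crabp1 to 0.0109 with no filter, and Fgfr1 to -0.0167 with library totals. Leaving out 1 library at a time gave -0.0744 to 0.0816 for Nes, -0.0281 to 0.1032 for Axin2, -0.2940 to 0.2955 for Shh, -0.1011 to 0.0748 for Crabp1, -0.0119 to 0.1820 for Lef1 and -0.2625 to 0.0589 for Snai1. With DESeq2 the calls of Hoxb1, Hoxb13, Pbx4 and Tbx6 were lost (adjusted p = 0.0508, 0.117, 0.0996 and 0.0795), with no filter those of Hoxb1 and Ctgf (adjusted p = 0.0921 and 0.0501), and in the second table that of Tbx6 (adjusted p = 0.0929). Meox2 was 9.22 without D3 replicate 1 and 5.15 without D3 replicate 2, and Hoxc12 3.96 with limma-voom, against 6.06 and 5.87 in the edgeR fit of all libraries. Hoxc12 had 14 counts on D6 and 0 on D3, so the counts only bound its rise. With the floor of 3 counts on D3 it was 4.89-fold. Of 2072 counts of list members called in 1 direction, 80 moved by over 1.5 times. The depth limits genes under 1 CPM, and 2 libraries a group limit every estimate of spread.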
